A study of Mus musculus with 44 samples.

Results

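Apob, Apoa1, Apoa5 and Apoe are 4 apolipoprotein genes, and their m6A peaks were followed through the 8 peak lists of a study of polychlorinated biphenyls in mouse liver. A peak belonged to a gene when it carried the gene's Ensembl identifier or when its span lay inside the gene's mm10 span. By this rule the genes held 104 of the 17573 peaks, 88 by identifier and 16 by span alone, and they were 4 of the 1420 loci with a peak in any list. Livers came from male C57Bl/6J mice fed a high-fat diet (42% of calories from fat). The groups were Aroclor1260 (a commercial mixture of chlorinated biphenyls), PCB126 (a single dioxin-like congener), both compounds in combination, and vehicle control. Each animal was dosed by mouth on 1 occasion, at week 2 of 12, and neither the doses nor the animals' ages were stated in the sources used. All groups, controls included, were on the high-fat diet, so no comparison here speaks of the diet.

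N6-methyladenosine (m6A) is a methyl mark on adenosines of messenger RNA that reader proteins bind and that can alter the stability and translation of a transcript. It was measured by MeRIP, in which an antibody against m6A pulls down RNA fragments that are then sequenced. A peak is a stretch of exons where the pulled-down RNA exceeds a reference, here either the input RNA (5 libraries per treatment) or a pooled precipitate with control IgG (1 library per treatment). Fold enrichment is the authors' ratio of m6A libraries over that reference for a peak, read here as linear. Apolipoproteins are the protein part of the particles that carry lipid in blood, and the liver makes them in large amounts. Apob is the scaffold of very-low-density and low-density lipoprotein, Apoa1 that of high-density lipoprotein, Apoe directs remnants to liver receptors, and Apoa5 promotes the clearance of triglyceride.

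Each list was called on the 5 m6A libraries of a treatment together. No value below has an error between animals, no test across animals could be made, and list values are set side by side. Against input, the lists held 506 peaks after Aroclor1260, 2178 after PCB126, 2284 with the combination and 620 in the control. Against IgG they held 2082, 4129, 3683 and 2091 in the same order. Read depth is unknown, and a list's length can depend on it. Hepatocyte transcripts had a peak for 8 of 16 listed markers in at least 1 list, against 1 of 6 endothelial (Cdh5), 1 of 6 Kupffer cell (Cd5l), 1 of 6 stellate cell (Dcn), 1 of 5 cholangiocyte (Spp1), 0 of 4 lymphocyte and 0 of 3 adipocyte markers. Single lists held fewer hepatocyte markers: against input, 2 of 16 after Aroclor1260, 4 after PCB126, 7 with the combination and 3 in the control. A marker without a peak may still be expressed, since a peak is an excess over the reference. In whole liver, fewer cells of a type and less RNA per cell cannot be told apart.

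Apob showed the widest swings of the 4 genes between treatments, in which peaks were called and where. Against input it had 0 peaks after Aroclor1260, 0 after PCB126, 13 with the combination and 8 in the control. Against IgG it had 5, 9, 8 and 6 peaks in that order. Apoa5, Apoe and Apoa1 had a peak in each of the 8 lists, which holds for 141 of all 1420 loci (9.93%). With all deposited peaks, Apob was therefore the only member lost after Aroclor1260 and after PCB126 against input, and no member was lost against IgG or after the combination. With each input list held to its 506 peaks of highest fold, Apoa1 had 0 peaks after PCB126 and 0 with the combination, against 1 in the control. Over all loci with a control peak, 35.7% were lost after Aroclor1260 against input, 7.06% after PCB126 and 6.67% with the combination. Against IgG, 29.8%, 11.4% and 12.6% of control loci were lost in the same order.

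Apob lies on the plus strand of chromosome 12, at chr12:7977629-8016839, a span of 39211 bp. Its highest fold in each of the 6 lists with an Apob peak belonged to a peak in or across a long exon at chr12:8005736-8013202, 7467 bp in length, which begins 28107 bp into the gene. Of the Apob bases in peaks, the exon held 54.4% with the combination and 75.7% in the control against input. Against IgG it held 15.8% after Aroclor1260, 96.5% after PCB126, all with the combination and 60.8% in the control. The exon's edges were read from a control peak against IgG, in which it is a complete block between splice junctions, and 3 Apob peak blocks end at its last base. This exon is known to hold the glutamine codon that Apobec1 edits to a stop codon, which gives the short form of the protein. In the control against input, 3 wide peaks lay wholly inside the exon. They ran from 8005784 to 8007731 at an enrichment of 7.34-fold, from 8007831 to 8009979 with 13.9, and from 8010128 to 8012975 with 6.05. The middle peak ranked 10th by fold among the 620 control peaks. A further control peak began inside the exon and crossed into the next ones, from 8013075 to 8013940, with 3.51. Outside the exon, a control peak near the end of the gene, from 8015137 to 8016635, had 4.50, and the 3 peaks in earlier exons had folds from 1.34 to 1.47.

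The combination gave the same middle stretch the highest Apob value of any list. Against input, its peak between 8007781 and 8009729 reached 18.0-fold, rank 27 of 2284. It was flanked by a peak from 8006633 to 8007182 with 11.5 and by a peak from 8009879 to 8011227 with 8.88. Of the 3976 exon bases covered after the combination, 3778 were also covered in the control, and these were 53.4% of the 7073 bases covered in the control. In the exons before the long one, the combination had 6 peaks with folds from 1.21 to 2.42, so the larger number of Apob peaks after the combination came with low folds there.

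Exonic bases in peaks depend less than peak number on how a region is split, but they leave out the gaps between split peaks. Apob coverage against input was 0 bp after Aroclor1260, 0 bp after PCB126, 7303 bp with the combination and 9346 bp in the control. Against IgG it was 954, 4304, 5651 and 12291 bp in the same order. The control thus had the widest coverage with either reference, although the PCB126 and combination lists were longer than the control list.

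**Figure D1:**
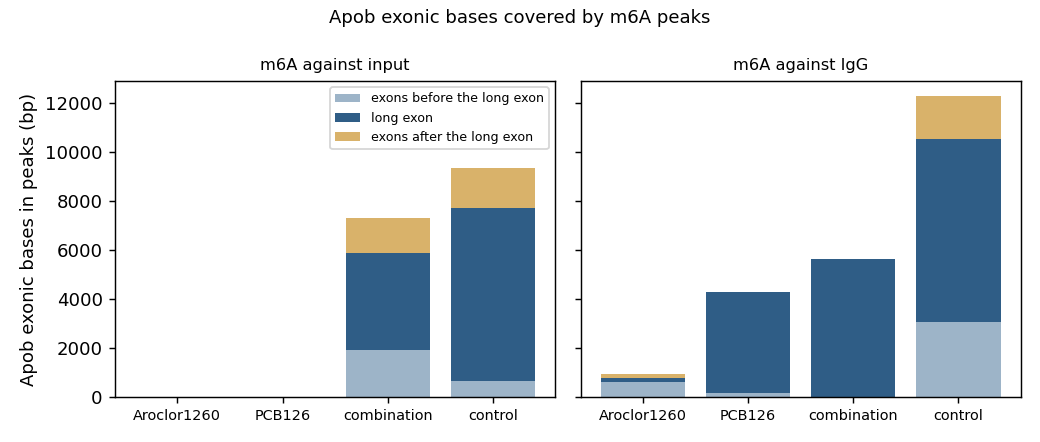
Apob exonic bases covered by m6A peaks (bp, vertical axis) by treatment, for lists called against input on the left and for lists called against IgG on the right. Each bar is 1 peak list, split into exons before, in and after the long exon. The control bars reach 9346 and 12291 bp, the combination bars 7303 and 5651 bp, and the Aroclor1260 bars 0 and 954 bp. Of the 12291 bp, 8741 come from 1 peak with a false discovery rate of 0.0398.

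Within the long exon, the IgG lists as deposited separated Aroclor1260 from the other treatments. The share of the exon's bases in a peak was 2.02% after Aroclor1260, 55.6% after PCB126, 75.7% with the combination and the whole exon in the control. The control share came from 1 peak with a false discovery rate of 0.0398. At a bound of 0.01 no control peak against IgG would lie in the exon, so the contrast with the control rests on that peak. After Aroclor1260 the exon held a single peak, from 8012276 to 8012426, at 2.08-fold, and this was also the highest Apob fold in that list, rank 1411 of 2082. The other 4 Apob peaks of that list, in exons on either side, had folds from 1.36 to 1.88. After PCB126 the exon held 8 peaks with folds from 3.99 to 8.10, after the combination 8 peaks with 4.69 to 12.5, and in the control 1 peak with 10.8 that covered it whole and ran on into exons on either side. In the middle stretch the PCB126 list had only short peaks, from 8009030 to 8009229 with 6.48 and from 8009479 to 8009779 with 7.12, where the combination had an unbroken peak from 8007881 to 8009829 with 12.5.

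**Figure D2:**
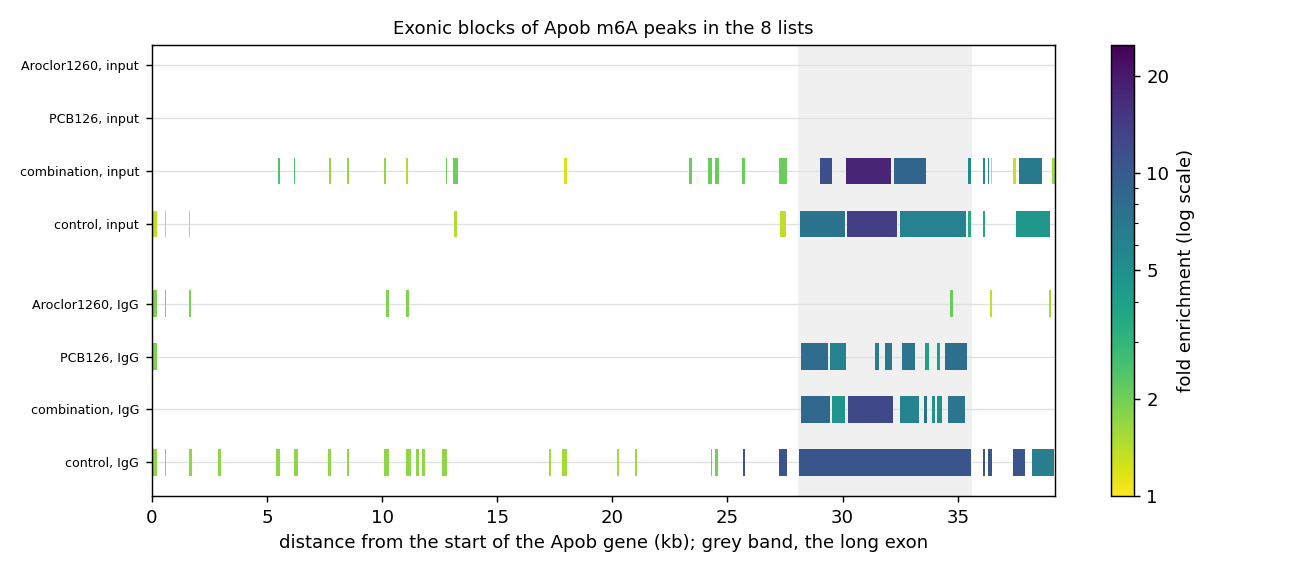
Exonic blocks of Apob m6A peaks in the 8 lists, by distance from the start of the gene (kb), coloured by the fold enrichment of the peak on a log scale, with the long exon as a grey band. The 2 upper rows are empty, since Apob had no peak after Aroclor1260 or PCB126 against input, and in each of the 6 other lists the peak with the highest fold lies in the band or covers it.

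The highest Apob fold enrichment after PCB126 against IgG was 8.10, against 10.8 in the control. Among the 529 loci with a peak in both of these lists, 82.8% had the higher value after PCB126, so Apob was on the less common side. The control value of 10.8 was that of the wide peak with a false discovery rate of 0.0398. The next highest control peak had 6.44, below 8.10. The highest Apob fold after the other exposures is set beside the same control value. After Aroclor1260 it was 2.08, where 55.6% of 419 shared loci had the higher value after exposure. After the combination it was 12.5 against IgG and 18.0 against input, both above the control values of 10.8 and 13.9, as were 75.5% and 93.7% of shared loci.

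The place of the authors' p-values for Apob within a list differed between lists. In the control against input, all 8 Apob peaks had a p-value listed as 0, as did 46 of the 620 peaks. After the combination against input they ran between 2.5e-11 and 0.0058, with a median of 1.9e-06 beside a list median of 6.8e-08, and 84.8% of the list had a p-value at least as high as the lowest of them. Against IgG the lowest Apob p-value was 0.00062 after Aroclor1260, 0.00016 after PCB126, 9.1e-06 with the combination and 0.00083 in the control. Peaks with a p-value at least as high as these made up 1.34%, 4.5%, 16.0% and 0.956% of their lists. The wide control peak with a fold of 10.8 had a false discovery rate of 0.0398, close to the largest of any list, 0.049. Against IgG, high folds at Apob thus stood beside weak p-values in the PCB126, combination and control lists. How this bears on the 2 lists with no Apob peak was not tested.

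**Figure D3:**
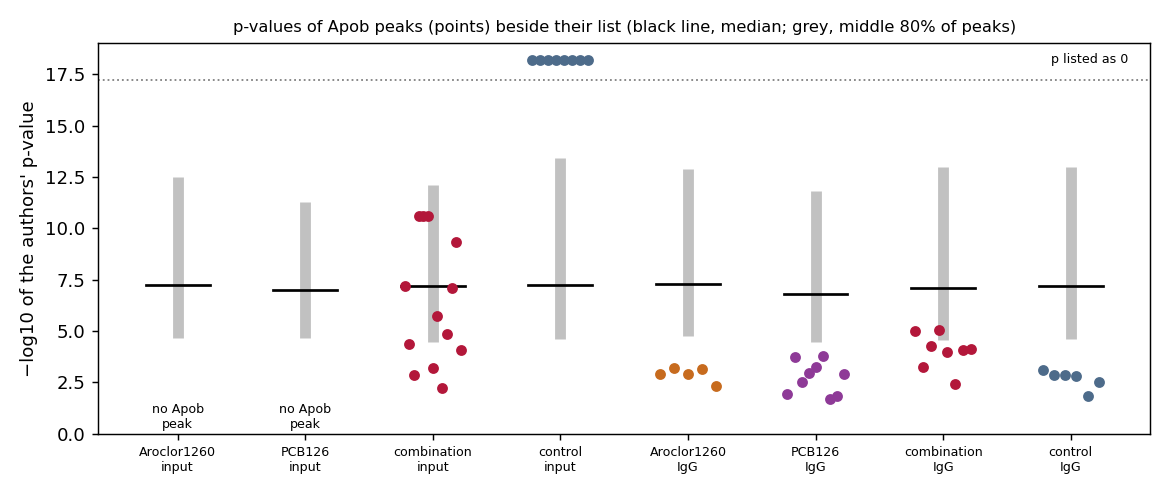
The authors' p-values of Apob peaks as −log10 (vertical axis, points in order along the gene) in each list, beside the list's median (black line) and the middle 80% of its peaks (grey bar). Points above the dotted line have a p-value listed as 0, which holds for all 8 Apob peaks of the control against input. Against IgG, every Apob point lies below its list's median.

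Overlap between the 2 references at Apob differed by treatment and direction. Of the 13 Apob input peaks after the combination, 3 overlapped a peak of the IgG list, where 81.9% of the whole input list did. In the control, 7 of 8 did, and 85.0% of the whole list. Of the Apob peaks called against IgG, 0 of 5 after Aroclor1260, 0 of 9 after PCB126, 5 of 8 with the combination and 3 of 6 in the control overlapped an input peak. The shares over the whole IgG lists were 21.0%, 47.0%, 52.9% and 24.4% in the same order. The input peaks of the other 3 genes were also found against IgG, apart from 1 of the 2 Apoe peaks after the combination.

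A weak peak also began at the start of Apob, at position 7977698, in the Aroclor1260, PCB126 and control lists against IgG (folds 1.88, 1.87 and 1.73) and in the control list against input (1.34). These peaks differed in length. The control peak against IgG ran to 7990443 in 13 exonic blocks (1899 bp), so its fold is not that of the start alone. The others held 301 bp after Aroclor1260, 151 bp after PCB126 and 251 bp in the control against input. No peak began there in either combination list. The peaks that begin there reach into the start window of the gene in RefSeq's GRCm38.p6 table (chr12:7977427-7977726, plus strand), the only window of a member that a peak touched. The window is printed because it is the one stretch of a peak whose sequence the tables hold, with the 29 bases inside the peak in capitals.

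Apob start window: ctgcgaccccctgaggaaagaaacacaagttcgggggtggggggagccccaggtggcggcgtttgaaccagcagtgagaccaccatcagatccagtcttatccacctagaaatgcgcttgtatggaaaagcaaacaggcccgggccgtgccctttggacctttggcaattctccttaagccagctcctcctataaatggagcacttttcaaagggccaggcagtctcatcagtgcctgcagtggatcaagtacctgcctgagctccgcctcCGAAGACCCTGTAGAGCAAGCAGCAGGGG

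The m6A writer prefers an adenosine followed by C and preceded by a purine, most often G. The capitals were searched for GGAC and AGAC, which do not overlap each other, and held 1 match, AGAC, on the gene's strand and 0 on the other. Of the last 29 bases of 32851 such windows, 20.3% held either motif on the gene's strand and 36.8% on either strand, so the match is common and only describes the sequence. The sequence under the long exon was not used here.

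Apoa5 had the most constant peaks of the 4 genes. It lies at chr9:46268608-46271921 on the plus strand, and a peak from 46269119 to 46271128 had the same edges in all 8 lists. It covers 3 exonic blocks of 19, 104 and 1361 bp. A smaller peak from 46271227 to 46271375 followed after a gap of 98 bp in 7 lists, and in the combination against IgG it reached 46271425. Against input, the larger peak had a fold enrichment of 9.08 after Aroclor1260, 16.0 after PCB126, 16.3 with the combination and 7.17 in the control. Against IgG it had 9.26, 19.4, 14.5 and 11.4 in the same order. PCB126 and the combination were above the control with both references, whereas Aroclor1260 was above it against input and below it against IgG.

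Against input, the smaller Apoa5 peak had 3.13 after Aroclor1260, 6.07 after PCB126, 5.26 with the combination and 2.59 in the control. The exposures were again above the control, but here PCB126 was above the combination. Against IgG the smaller peak had 4.60, 7.41, 4.89 and 4.06. These values moved with the lists as a whole. Of all peaks with the same edges in an exposed and the control list against input, the exposed list had the higher fold for 50% after Aroclor1260 (of 68 peaks), 91.4% after PCB126 (of 81) and 91.1% with the combination (of 79). Against IgG the shares were 63.0%, 75.9% and 68.8%. All 4 Apoa5 peaks, those of the opposite strand included, were higher after PCB126 with either reference, which is near the background and no result about Apoa5.

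The 16 peaks matched by span alone all lay at Apoa5 and carried a minus-strand identifier, ENSMUSG00000111403, for which the tables hold no name. It had a peak from 46270083 to 46271127 and another from 46271222 to 46271365 in every list. Of its 382 exonic bases in peaks, 377 lay inside the Apoa5 peaks. The fold enrichment of its larger peak was 7.15 after Aroclor1260, 13.6 after PCB126, 23.7 with the combination and 9.07 in the control against input, and 9.30, 21.5, 22.8 and 13.7 against IgG. The sources used here do not state whether strand was used in counting, so the reads of Apoa5 and of this identifier cannot be told apart.

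**Figure D4:**
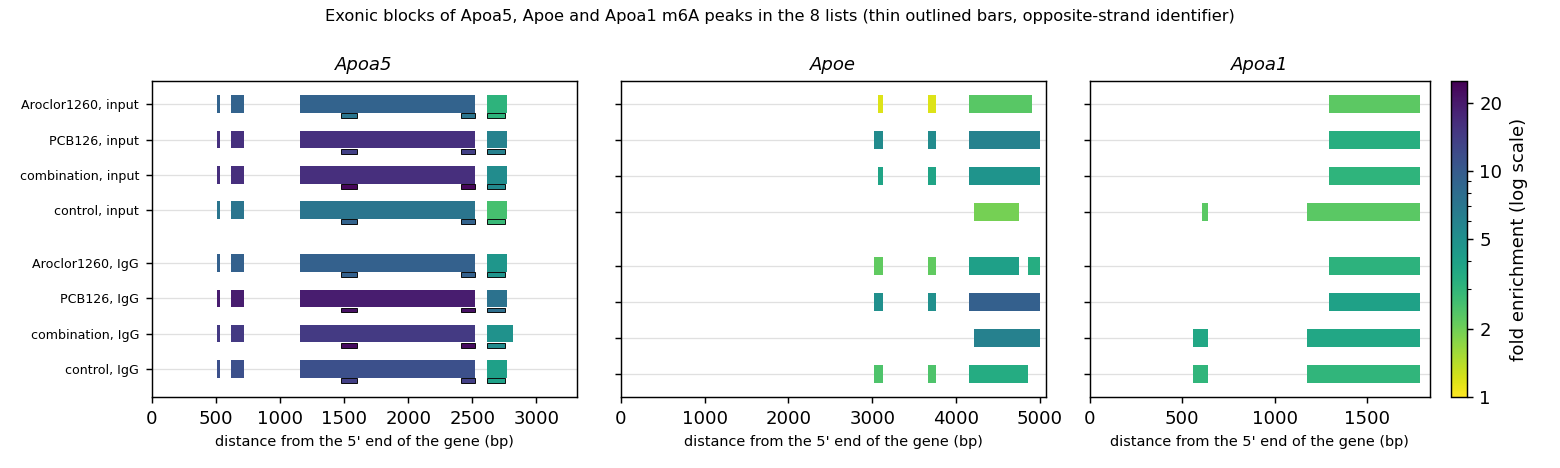
Exonic blocks of the peaks of Apoa5, Apoe and Apoa1 in the 8 lists, by distance from the 5′ end of the gene (bp), coloured by fold enrichment on a log scale, with thin outlined bars for the opposite-strand identifier at Apoa5. The large Apoa5 peak has the same blocks in all 8 rows, and the Apoe and Apoa1 peaks lie toward the right, the 3′ end.

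Apoe lies on the minus strand at chr7:19696244-19701310 and was marked toward its 3′ end. The main peak lay in the stretch from 19696308 to 19697153, its full extent in 3 lists. Against input, the highest Apoe fold was 2.31 after Aroclor1260, 6.03 after PCB126, 4.73 with the combination and 1.95 in the control. Against IgG it was 4.08, 9.48, 6.15 and 3.47. All 3 exposures thus had the higher value with both references, with Aroclor1260 the nearest to the control.

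Another Apoe peak, across 2 exons from 19697550, was called in 6 of the 8 lists. Its fold against input was 1.18 after Aroclor1260, 5.33 after PCB126 and 3.81 with the combination, and it was not called in the control. Against IgG it was 2.2 after Aroclor1260, 5.00 after PCB126 and 2.47 in the control, and it was not called with the combination. Its presence therefore did not track exposure with both references.

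Apoa1, at chr9:46228630-46230469 on the plus strand, had 1 peak in each list, and in all of them it ended at 46230417, 52 bp before the end of the gene. Its fold against input was 2.25 after Aroclor1260, 3.33 after PCB126, 3.08 with the combination and 2.28 in the control. Against IgG it was 3.17, 3.97, 3.67 and 3.05. The peak was a block of 495 bp in 5 lists. It took in a part of the preceding exon as well, for 693 bp, in the combination and the control against IgG, and for 644 bp in the control against input. The range of Apoa1 folds over the 8 lists, 2.25 to 3.97, was narrower than that of Apoa5 or Apoe.

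Read over the genes, the highest fold per gene was above the control after PCB126 for 3 of 3 genes present in both lists against input and for 3 of 4 against IgG, where Apob was the exception. Over all loci in both lists the shares were 94.9% and 82.8%. After the combination it was above the control for 4 of 4 with either reference, where the shares over all loci were 93.7% and 75.5%. After Aroclor1260 it was above for 2 of 3 against input (Apoa5 and Apoe) and 2 of 4 against IgG (Apoa1 and Apoe), beside 44.5% and 55.6%. These counts follow the lists and say nothing particular to the 4 genes.

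**Figure D5:**
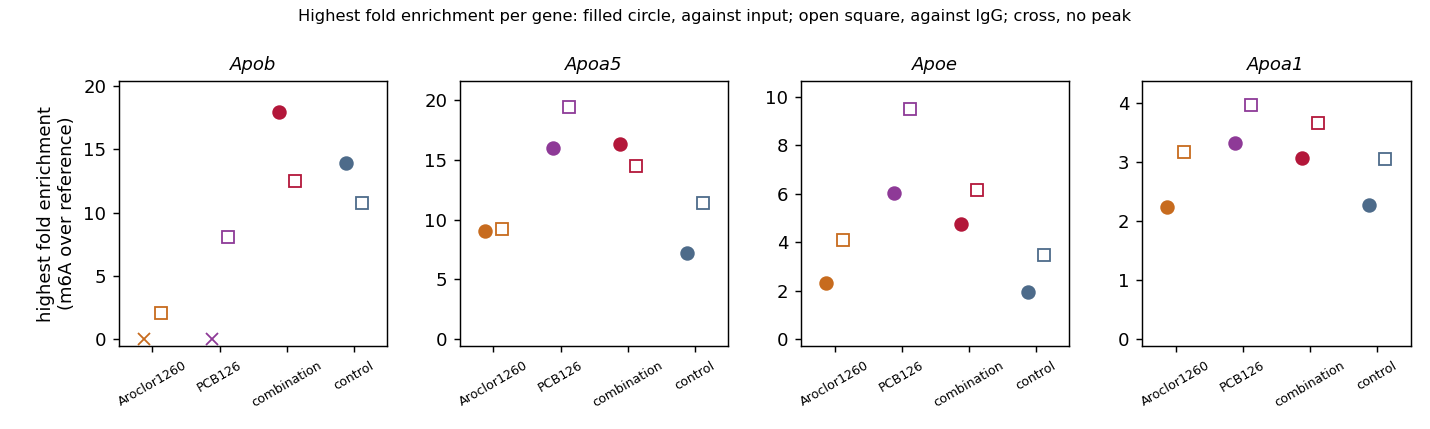
Highest fold enrichment (linear, m6A over reference) of Apob, Apoa5, Apoe and Apoa1 by treatment, with filled circles against input, open squares against IgG and crosses where no peak was called. Each point is 1 peak of 1 list, without an error. Apob is the only gene with crosses, and for Apoe the control points, 1.95 and 3.47, are the lowest of their kind.

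Of the 14 control peaks of the 4 genes against input, 6 were found after Aroclor1260 (42.9%, Wilson 95% interval 21.4 to 67.4%), 6 after PCB126 (42.9%, 21.4 to 67.4%) and 13 after the combination (92.9%, 68.5 to 98.7%). A control peak counts as found when an exposed peak overlaps it by at least 1 bp on the same strand. Over the whole control list, 50%, 88.2% and 87.4% were found. The 8 peaks missing after each single compound were the 8 Apob peaks. The intervals treat the 14 peaks as independent. Peaks of a gene share their reads, so the intervals understate the counting error and hold no error between animals. Against IgG, 10 of 13, 9 of 13 and 7 of 13 were found, beside 56.8%, 79.4% and 74.6% of the whole list. Of the 6 control peaks not found after the combination against IgG, 5 were Apob peaks outside the long exon and 1 was the Apoe peak farther from the 3′ end.

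Apoa1 and Apoa5 belong to a cluster on chromosome 9 in which Apoc3 and Apoa4 lie between them. Apoc3, an inhibitor of lipoprotein lipase, had no peak in any list. The lists held few minus-strand peaks, 4.79% of all, so a missing peak says little about a gene on that strand. Apoa4, which encodes a lipoprotein component secreted in fat absorption, had 2 peaks with folds up to 2.21 after PCB126 and 2 up to 2.22 after the combination against input by its plus-strand identifier, and none after Aroclor1260 or in the control. Against IgG that identifier had folds up to 2.68 after Aroclor1260, 2.85 after PCB126, 3.19 with the combination and 2.26 in the control. Apoc1, which lies on the 3′ side of Apoe on chromosome 7, had 1 peak of 2.23 after PCB126 and 1 of 2.17 after the combination against input, with none after Aroclor1260 or in the control. Against IgG, Apoc1 had 4.60 after Aroclor1260, 3.00 after PCB126, none with the combination and 1.20 in the control.

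A list of 50 other genes of lipoprotein assembly, exchange and uptake had 10 members with a peak in any list. Apoc1 had peaks on the minus strand alone, Apoa4 on both strands and the others on the plus strand, which held 95.2% of all peaks. The count is therefore no measure of how many of the 50 carry the mark. Against input, 3 of the listed genes had a peak after Aroclor1260, 7 after PCB126, 9 with the combination and 5 in the control. Of the 5 with a control peak, 3 were lost after Aroclor1260 (Apof, Apon and Apoa4, whose control peak carried an opposite-strand identifier), where 35.7% of all control loci were lost, and 0 after PCB126 or the combination. Gained were 1 after Aroclor1260 (Sdc1), 2 after PCB126 (Apoc1 and Sdc1) and 4 after the combination (Apoc1, Sar1b, Sdc1 and Abcg8), beside 28.4%, 65.6% and 66.9% of all loci with an exposed peak. Against IgG none was gained or lost after Aroclor1260 (30.3% and 29.8% of all loci), and none was gained after PCB126, where Apoh was lost (51.8% and 11.4%). After the combination against IgG, Sar1b and Abcg8 were gained and Apoc1 and Apoh were lost (47.5% and 12.6%).

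A1cf, the partner of Apobec1 in Apob editing, had peaks in all 8 lists, which holds for 9.93% of all loci. Its highest fold against input was 4.00 after Aroclor1260, 10.9 after PCB126, 5.95 with the combination and 7.70 in the control. Against IgG the values were 7.30, 6.57, 13.2 and 7.03. A1cf therefore had no constant order of treatments across the references.

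Among the remaining genes of the list, Sar1b, a coat GTPase for the export of large lipoproteins from the endoplasmic reticulum, and Abcg8, which pumps sterols into bile, had peaks after the combination only, with folds of 3.57 and 4.10 against input and 4.00 and 4.04 against IgG. Sdc1, a heparan sulphate proteoglycan that binds remnants, had 1.98 after Aroclor1260, 2.80 after PCB126 and 2.59 with the combination against input, with no control peak, although the control had 3.6 against IgG. Apof had folds between 2.22 and 4.85 in 7 lists, Apon between 3.00 and 8.50 in 7 lists and Apol9b between 3.57 and 13.4 in all 8. Apol9b has a near-identical relative, so its value is uncertain. Apoh had peaks of 1.64 after Aroclor1260 and 1.65 in the control against IgG alone.

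Likeness to Apob in peak numbers was measured as the summed difference in log2 of peak number plus 1 over the 8 lists. The nearest were Mpeg1 with a distance of 4.78, Rbbp6 with 4.88, Hyal1 with 5.30, Rai1 with 5.34 and the unnamed ENSMUSG00000019132 with 5.52. Mpeg1 and Hyal1 had no control peak against input, and the others had peaks after PCB126 against input, so none of them had the input pattern of Apob. That pattern, a peak in control and combination and none after either compound alone, was shared by 8 of the 255 control loci (3.14%), namely Apob, Cyp4a10, Ifngr1, Mgst1, Rnase4, Slco1b2, St6gal1 and the unnamed ENSMUSG00000048368. These were picked by the values of Apob. Of them, Apob and Rnase4, which encodes a secreted ribonuclease, had peaks in all 4 IgG lists. The share of all control loci with peaks in all 4 IgG lists is not given here, so this does not set Apob apart.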

How the data were processed

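The deposited files were 8 MeTPeak peak lists, per the file headers and titles, 1 for each treatment against input and 1 against IgG. The build was mm10 and the tools were BWA 0.7.17, Trimmomatic, FastQC 0.10.1 and bcl2fastq 2.20.0.422, per the submitters' processing notes. The sources used here do not state the caller's version and settings or the use of strand. The authors gave each peak a fold enrichment, a p-value (in a column headed score), the log10 of it (not used here) and the log10 of the false discovery rate. That the fold is a linear ratio and the score a p-value was read from the columns and is not stated in their headers. The replicates of a treatment were called together. The number of reads behind a peak is unknown.

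Positions are counted from 1. Ensembl identifiers took the name of the RefSeq gene of GRCm38.p6 that held at least 80% of their exonic peak bases, which named 1395 of 1512. The plus strand held 95.2% of peaks. Overlaps and coverage were computed in Python 3.11.15 with pandas 2.3.3, and the code was tested on simulated data. The 4 genes, the gene lists and the rule for the named genes (all members, listed genes with a peak in any list, and the 5 loci most like Apob) were chosen with earlier results of these data known. A listed gene is not reported here and was left out of the list's counts. No test was made, since no list has replicates. Alternatives were the IgG reference, stricter fold and false discovery thresholds, identifier-only matching, equal list lengths, merged peaks and other overlap rules.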

Additional observations from a re-analysis of the deposited data

How the results depend on the processing

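Of 168 values recomputed under another setting, 136 stayed within 1.5 times the value against input (or, for shares, within its Wilson interval) and 32 moved further. Not all of the 136 could have moved. A count of 0 stays 0 under settings that only drop or merge peaks. Identifier-only matching can change only Apoa5 and the totals, since all peaks matched by span alone lie there. The 136 are therefore no measure of robustness. With IgG as reference, Apob peaks were 5 after Aroclor1260, 9 after PCB126 and 8 with the combination, and its covered bases 954 and 4304 after the single compounds. Its highest folds there, 2.08 and 8.10, had no value against input and are not among the 168. The highest Apoe fold moved to 4.08 after Aroclor1260, 9.48 after PCB126 and 3.47 in the control. That at Apoa5, opposite-strand peaks included, moved to 13.7 in the control. Apoe peaks moved to 1 with the combination and 2 in the control. The 4 genes then had 13 and 16 peaks after Aroclor1260 and PCB126, and the control peaks found were 76.9% for Aroclor1260, 69.2% for PCB126 and 53.8% for the combination. A fold of at least 2 left 8 Apob peaks after the combination and 5 in the control, and 0 of the 1 Apoe peak in the control against input. With 506 peaks per list, taken from the top by fold, 5 and 5 remained, and 10 for the 4 genes after the combination, while Apoa1 had 0 after PCB126 and 0 after the combination. Matching by identifier alone left 2 of 4 Apoa5 peaks in each input list. Counting exposed peaks of either list gave 71.4% found after PCB126, and reciprocal overlap of 50% gave 57.1% after the combination. For Aroclor1260, counting exposed peaks of either list gave 64.3%, which counted as unmoved because the interval reached 67.4%. A false discovery rate of at most 0.01, merging and exonic overlap moved no value past that bound. The false discovery threshold was applied only to peak counts against input, not to the IgG lists or to coverage. There it would drop the wide control Apob peak against IgG, with 8741 exonic bp and a rate of 0.0398. Fewer peaks kept, or a wider set of peaks, is part of these settings by construction, and the cause of the shift with IgG was not tested. No paired analysis was possible because each list pools the 5 animals of a treatment, and for the same reason no replicate could be left out. Depth is unknown, so a missing peak is not shown to be an unmethylated transcript.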
